A study of Mus musculus with 8 samples.

Results

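The 3 natriuretic peptide receptor genes Npr1, Npr2 and Npr3, with Prkg1, the gene of the type I cGMP-dependent protein kinase, were followed by RNA-Seq in mouse brown adipose tissue (BAT). They are 4 of the 49452 genes in the expression table and were picked by gene symbol. Npr3 was picked from its own values, because it was higher in both the cold and the high-fat diet (HFD) group, so its differences in these comparisons are described and not tested. The 8 BAT libraries, from male C57BL/6 mice, fall into 4 groups of 2. Mice of 10 to 12 weeks were housed at 22 °C (replicates 4 and 7) or held at 4 °C for 24 h (replicates 2 and 11), of which the last 4 h were without food. The study's methods leave unclear if food was also withdrawn at 22 °C. Mice of 32 weeks had been fed a control diet (CD, replicates 6 and 8) or HFD (replicates 2 and 6) for 28 weeks. The labels call the food of the CD group normal chow. The groups carry no named allele, and the temperature and diet arms differ in age as well, so tests of a condition are made within an arm and levels set across arms are a description. The test of the cold difference minus the diet difference spans both arms and cannot separate condition from age. The labels do not say whether each library came from a separate mouse, so p-values measure the spread between these libraries. No exact permutation test was run, since with 2 libraries against 2 its smallest two-sided p is 0.333.

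Natriuretic peptides are hormones released by heart and vessels that act through cyclic GMP (cGMP). NPR1 binds the atrial and B-type peptides and NPR2 the C-type peptide, and both make cGMP with a guanylyl cyclase domain on the inside of the cell. NPR3 binds all of these peptides but lacks the cyclase: it takes them up for breakdown, which is why it is called the clearance receptor, and it can signal through inhibitory G proteins. In fat cells cGMP activates the kinase encoded by Prkg1, which promotes lipolysis and thermogenic gene expression, and the balance of NPR1 to NPR3 is thought to bear on how strongly fat responds to these hormones.

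Npr1 (ENSMUSG00000027931) lies on chromosome 3 from 90450591 to 90465866 on the minus strand of GRCm38, and its longest transcript has 22 exons and encodes 1057 amino acids. Npr2 (ENSMUSG00000028469) lies on chromosome 4 from 43631935 to 43651244 on the plus strand, and its longest transcript likewise has 22 exons, with 1047 amino acids in its longest protein. Npr3 (ENSMUSG00000022206) lies on chromosome 15 from 11839896 to 11905674 on the minus strand, with only 8 exons in its longest transcript and 536 amino acids in its longest protein. The shorter coding part goes with the missing cyclase. Prkg1 (ENSMUSG00000052920) spans chromosome 19 from 30567551 to 31765033 on the minus strand and encodes up to 686 amino acids. All 4 are protein-coding.

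The 250 bases before the start of each receptor gene are shown so that the start regions of the 3 members of the family can be set side by side. They are from RefSeq on GRCm38.p6, on the strand of the gene, 5′ to 3′. Capitals mark any match, on either strand, to GGGCGG (the GC box), CCAAT (the CCAAT box), TATAAA (the TATA box), TGACG (the core of the cAMP response element) or AGGTCA (a word read by many nuclear receptors). The windows are chr15:11907372-11907621 for Npr3, chr3:90465867-90466116 for Npr1 and chr4:43631685-43631934 for Npr2.
Npr3: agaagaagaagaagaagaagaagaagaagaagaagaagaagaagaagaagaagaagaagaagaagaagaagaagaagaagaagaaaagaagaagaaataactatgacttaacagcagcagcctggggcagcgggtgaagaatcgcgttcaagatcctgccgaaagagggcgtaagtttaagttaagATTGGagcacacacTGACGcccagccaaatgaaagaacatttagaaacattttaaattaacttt
Npr1: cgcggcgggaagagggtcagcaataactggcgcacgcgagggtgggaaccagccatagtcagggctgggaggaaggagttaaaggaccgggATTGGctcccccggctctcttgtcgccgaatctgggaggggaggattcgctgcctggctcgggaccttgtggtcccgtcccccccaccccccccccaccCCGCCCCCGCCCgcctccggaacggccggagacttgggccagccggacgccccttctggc
Npr2: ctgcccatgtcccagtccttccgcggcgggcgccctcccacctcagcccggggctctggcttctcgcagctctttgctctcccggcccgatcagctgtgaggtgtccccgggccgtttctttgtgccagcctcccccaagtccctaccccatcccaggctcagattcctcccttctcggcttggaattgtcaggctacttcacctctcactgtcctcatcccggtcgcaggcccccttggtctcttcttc

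The Npr3 window opened with a long run of the trinucleotide GAA, which occurred 37 times, and held 1 CCAAT match and 1 TGACG match. Its GC content was 38.8%, the 10th percentile of the 32817 mouse promoter windows of this length, whose median was 52.4%. The Npr1 window was at 70.4% GC, above the 90th percentile of 69.2%, with 21 CpG dinucleotides, 2 GC boxes and 1 CCAAT match. The Npr2 window was at 64.4% GC with 13 CpG dinucleotides and held none of the 5 words. Of the 3 windows that of Npr3 was the most AT-rich. The words searched are common. Of all windows, 32.7% held GGGCGG, 33.8% CCAAT, 12.4% TATAAA, 17.8% TGACG and 14.0% AGGTCA. The RefSeq start of Npr3 lies 1697 bases upstream of the end that the expression table gives for the gene, whereas for Npr1 and Npr2 the starts coincide. A match is a description of the letters only. RefSeq has a pair of windows for Prkg1, at 55.2% and 62.8% GC, each with 1 GC box.

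Levels are in FPKM, fragments per kilobase of transcript scaled to the mapped fragments of a library, which allows for transcript length and library depth. Shifts between libraries can remain. Among genes that averaged 1 FPKM or more the median log2 difference was 0.21 in the cold and 0.29 on HFD, so values after rescaling are given as well. The step between low values put the depth of a library at 8.93e+07 to 1.24e+08 fragments, and 10228 to 11436 genes reached 1 FPKM. The tissue label held, as the summed level of 10 brown adipocyte markers, which include Ucp1, was 2790 to 10052 FPKM and none was at 0 in any library. In each group 1 library had the satellite-repeat gene Gm10800 above 100 FPKM and the other did not. All 2613 X-linked genes were listed at 0 in 3 libraries. The members are autosomal, and whether this bears on the scaling of those libraries was not tested. Summed skeletal muscle markers ranged from 14.2 to 3827 FPKM and macrophage markers from 39.4 to 247 FPKM, and both are given beside the results they move with. In whole tissue, fewer cells of a type and less RNA per cell cannot be told apart.

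Npr3, the clearance receptor, stood at 2.58 to 6.16 FPKM over both control groups and at several-fold higher levels in the cold and on HFD. Its level was 6.16 and 4.57 FPKM in the libraries at 22 °C and 34.0 and 21.3 FPKM at 4 °C. It was 4.32 and 2.58 FPKM on CD and 44.4 and 41.9 FPKM on HFD. Every cold or HFD library was above every control library, which is the pattern Npr3 was picked for. The group means were 5.37 ± 1.12 FPKM (SD, n = 2) at 22 °C, 27.6 ± 8.96 at 4 °C, 3.45 ± 1.23 on CD and 43.1 ± 1.76 on HFD. The mean was 5.15-fold higher at 4 °C than at 22 °C, with 3.46-fold to 7.42-fold between single libraries. It was 12.5-fold higher on HFD than on CD, with 9.69-fold to 17.2-fold between single libraries. Ordered by level, as a description across arms that also differ in age, the groups ran HFD, 4 °C, 22 °C and CD. None of the neighbouring groups overlapped, although the lowest library at 22 °C (4.57 FPKM) and the highest on CD (4.32 FPKM) were closer than the libraries within either group.

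**Figure D1:**
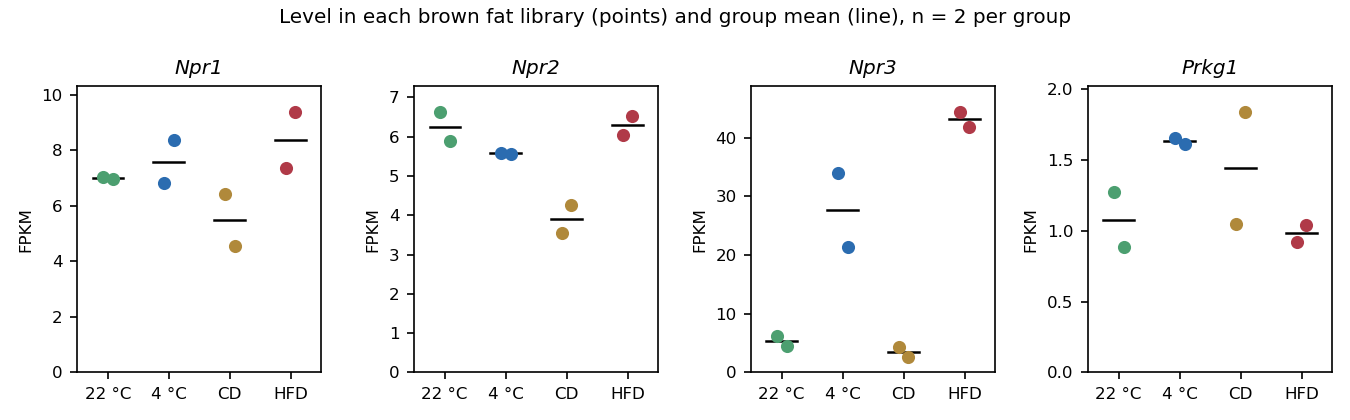
FPKM of Npr1, Npr2, Npr3 and Prkg1 (vertical axes, each from 0) in the 8 BAT libraries by group; points are libraries and lines are the means of the 2 libraries of a group. Npr3 lies between 2.58 and 6.16 FPKM in the control libraries and between 21.3 and 44.4 FPKM in the cold and HFD libraries, while over all libraries Npr1 spans 4.55 to 9.37 FPKM, Npr2 3.55 to 6.63 and Prkg1 0.887 to 1.84.

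On the log2(FPKM + 1) scale the Npr3 difference was 2.14 in the cold and 3.34 on HFD, differences that 1 added before the logarithm makes smaller than the folds of FPKM. Differences of at least 2-fold in either direction on this scale were found for 6.28% of the 17470 genes tested in the cold comparison and 4.39% of the 17535 tested in the diet comparison. As the rule used these contrasts, nothing is read from the place of Npr3 among them. The direction within library types is fixed by the choice of Npr3, so only the sizes are given. Between the libraries with high Gm10800, Npr3 was 3.46-fold higher at 4 °C and 17.2-fold higher on HFD. Between those with low Gm10800 it was 7.42-fold and 9.69-fold higher. The labels of CD replicate 6 carry a different identifier from those of CD replicate 8 and the HFD libraries, whose meaning is not stated, and without CD replicate 6 the HFD difference of Npr3 was 3.62 on the log2 scale.

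Npr1, the receptor for the atrial and B-type peptides, was nearly level between 22 °C and 4 °C. It was at 7.04 and 6.96 FPKM at 22 °C and at 6.82 and 8.36 FPKM at 4 °C. The cold libraries thus lay on either side of those at 22 °C. The log2 difference was 0.10 with a standard error (SE) of 0.19 and an adjusted p of 0.793 by limma, adjusted over all genes tested. Its sign rests on 1 library and on the scaling, being -0.03 without 4 °C replicate 11 and -0.16 after median centring. On CD, Npr1 was at 6.42 and 4.55 FPKM and on HFD at 7.35 and 9.37 FPKM, so both HFD libraries were above both CD libraries. The HFD mean was 1.52-fold the CD mean, with a log2 difference of 0.54 (SE 0.34), which did not pass the test (adjusted p = 0.523, limma). After median centring or quantile normalization it was 0.18 or 0.21.

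Npr2, the receptor for the C-type peptide, was at 6.63 and 5.88 FPKM at 22 °C and 5.59 and 5.57 FPKM at 4 °C. Both cold libraries were a little below both controls. The log2 difference was -0.14 (SE 0.18) and did not pass the test (adjusted p = 0.673, limma). Without 22 °C replicate 4 the difference was -0.06, and without 22 °C replicate 7 it was -0.21. On CD Npr2 was at 3.55 and 4.27 FPKM, and on HFD at 6.05 and 6.53 FPKM. Both HFD libraries were again the higher, by 1.61-fold on the means, with a log2 difference of 0.57 (SE 0.30) that did not pass (adjusted p = 0.442, limma). After median centring or quantile normalization it was 0.22 or 0.20, whereas the cold difference went to -0.40 or -0.39.

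Prkg1, the kinase that cGMP activates, was the lowest of the 4 genes. It was at 1.27 and 0.887 FPKM at 22 °C and at 1.65 and 1.61 FPKM at 4 °C. Both cold libraries were higher, by a log2 difference of 0.35 (SE 0.16) that did not pass the test (adjusted p = 0.248, limma). Without 22 °C replicate 4 the cold difference was 0.48, and without 22 °C replicate 7 it was 0.21. On CD Prkg1 was at 1.05 and 1.84 FPKM and on HFD at 0.921 and 1.04 FPKM. Both HFD libraries were lower, with a log2 difference of -0.28 (SE 0.23, adjusted p = 0.621, limma), but HFD replicate 6 and CD replicate 6 were almost equal. Without CD replicate 8 the difference was -0.05. After median centring it was -0.64, and the cold difference was then 0.09.

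Within library types the HFD differences of these 3 genes kept their sign, at 0.59 and 0.48 for Npr1, 0.42 and 0.73 for Npr2 and -0.56 and -0.01 for Prkg1 (high and low Gm10800, log2 scale). Without CD replicate 6 they were 0.75, 0.47 and -0.52, and without CD replicate 8 they were 0.33, 0.68 and -0.05. In the cold the within-type values were 0.22 and -0.03 for Npr1, -0.22 and -0.06 for Npr2 and 0.20 and 0.49 for Prkg1, so that only Npr1 changed sign between the types.

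None of Npr1, Npr2 and Prkg1 was past the threshold (adjusted p under 0.05 and a log2 difference of at least 1) in either comparison by limma, and 0 of the 3 had an unadjusted p under 0.05. Of all genes tested, 1.44% were past it in the cold (1.22% higher and 0.223% lower) and 0.0684% on HFD (0.0513% higher and 0.0171% lower), and 24.5% and 14.4% had an unadjusted p under 0.05. Groups that do not overlap are common with 2 libraries against 2. In the cold comparison both libraries were higher for 37.9% of genes and lower for 20.6%, and in the diet comparison 39.9% and 5.8%. Among these 3 genes, 1 was higher and 1 lower in both cold libraries, and 2 were higher and 1 lower in both HFD libraries.

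Whether cold and HFD acted differently on a gene was tested as the cold difference minus the diet difference in a limma fit of all 8 libraries. It was -0.44 for Npr1 (SE 0.35, adjusted p = 0.567), -0.71 for Npr2 (SE 0.29, adjusted p = 0.234) and 0.63 for Prkg1 (SE 0.27, adjusted p = 0.267). None of the 3 passed, against 1.65% of the 16552 genes tested (1.16% with a higher and 0.489% with a lower value in the cold). Unadjusted, the p was 0.0382 for Npr2, 0.0502 for Prkg1 and 0.239 for Npr1 by limma, and 18.8% of all genes were under 0.05. A difference between cold and HFD is not shown for these genes after adjustment.

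Set against each other within a library, where scaling between libraries plays no part, the receptors changed their order. The FPKM ratio of Npr3 to Npr1 was 0.875 and 0.657 at 22 °C and 4.98 and 2.55 at 4 °C. It was 0.673 and 0.568 on CD and 6.03 and 4.47 on HFD. Npr3 was thus below Npr1 in all 4 control libraries and above it in all 4 others. The ratio of Npr3 to Npr2 moved in the same way, between 0.605 and 1.22 in the control libraries and between 3.82 and 7.34 in the others. The ratio of the cyclase receptors to each other, Npr1 to Npr2, stayed between 1.06 and 1.81 in all 8 libraries. These ratios contain Npr3 or were formed beside it and are given with no test.

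As a share of the summed FPKM of the 3 receptors, Npr3 held 31.1% and 26.3% at 22 °C, 73.2% and 60.5% at 4 °C, 30.2% and 22.7% on CD and 76.8% and 72.5% on HFD. The summed FPKM of Npr1 and Npr2 was 13.7 and 12.8 at 22 °C and 12.4 and 13.9 at 4 °C, ranges that overlap. It was 9.97 and 8.81 on CD and 13.4 and 15.9 on HFD. Transcripts of the clearance receptor were thus the majority in cold and HFD libraries and the minority in the controls, while those of the cyclase receptors moved far less. Transcript shares do not give receptor protein.

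**Figure D2:**
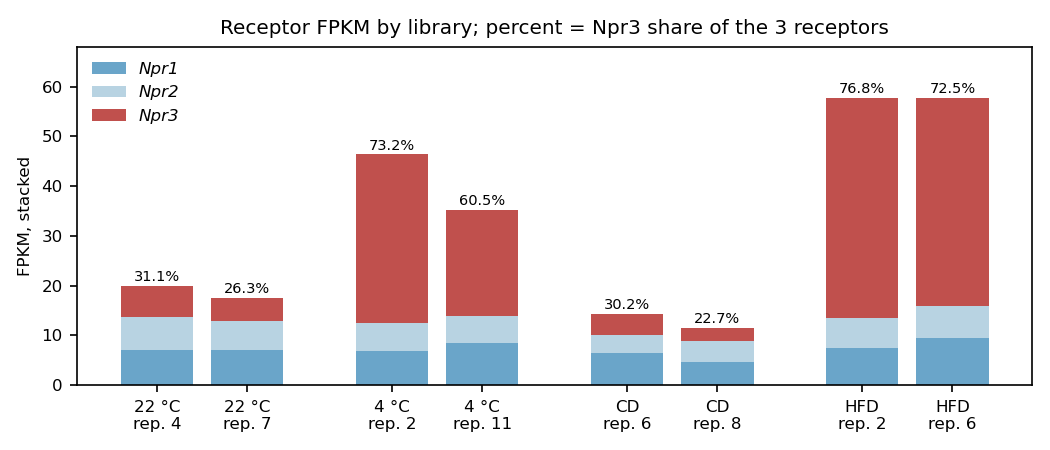
Stacked FPKM of Npr1, Npr2 and Npr3 (vertical axis, from 0) in each of the 8 libraries, with the share of Npr3 printed above each bar. The Npr3 share is 22.7% to 31.1% in the 4 control libraries and 60.5% to 76.8% in the cold and HFD libraries.

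Over the 8 libraries Npr1 averaged 7.11 FPKM, Npr2 5.51, Npr3 19.9 and Prkg1 1.28, which placed them at the 59.2, 51.2, 83.0 and 6.33 percentiles of the 10877 autosomal genes that averaged 1 FPKM or more. For Npr3 this average pools groups at 5.37 (22 °C), 27.6 (4 °C), 3.45 (CD) and 43.1 FPKM (HFD), so its place describes no single group. Converted by the step between low values, the genes drew at least 1672, 1407, 1637 and 635 fragments in any library. Counting error was then at most 3.97% (Prkg1). Some pairs of libraries lay closer than that, as Npr2 did at 4 °C, so a small SD from 2 libraries is no measure of precision. Antisense genes overlap Npr1 (Gm16048, 0.422 to 1.02 FPKM) and Npr2 (Gm12473, 0.801 to 1.99 FPKM), and Cstf2t (4.32 to 9.83 FPKM) lies inside Prkg1 on the other strand. The libraries were directional, but whether strand was used in the quantification is not given in the sources used here, and without it reads of such partners cannot be told apart.

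The rest of the pathway was read from 6 lists with 52 genes, of which 43 could be tested in the cold comparison and 42 in the diet comparison. In the cold, 4 of 43 rose past the threshold and 0 fell (limma, 12 of 43 at an unadjusted p under 0.05), where 1.22% and 0.223% of all genes tested did, and the median log2 difference was 0.20, beside a median of 0.07 over all genes tested and 0.21 over those that averaged 1 FPKM or more. Of these 4, Nos1 and Kcnma1 had the 2 libraries at 0.1 FPKM needed for a test only through the cold group. The lists were also chosen with earlier results of these data known. The count of 4 is therefore a description and no test of the pathway. On HFD 0 of 42 passed by limma (adjusted p from 0.245 to 0.994, 5 of 42 at an unadjusted p under 0.05), where 0.0684% of all genes did, and the median was 0.25 beside 0.18 and 0.29.

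The ligand genes themselves were hardly detected in BAT. Nppa, Nppb and Nppc, which encode the atrial, B-type and C-type peptides, were at or below 0.036 FPKM in every library, and Corin, whose protease activates the atrial peptide, was at most 0.0524 FPKM. Ostn, which encodes a peptide that binds NPR3, was at most 0.427 FPKM, in CD replicate 8. These 5 genes were too low to test. Of the 4 tested genes of peptide processing, 0 passed in either comparison by limma, with 2 in the cold and 0 on HFD at an unadjusted p under 0.05. Pcsk6, a proprotein convertase, was at 11.4 and 10.8 FPKM at 22 °C and 20.8 and 35.7 at 4 °C (log2 difference 1.23, SE 0.29, adjusted p = 0.0883, limma, and 0.0412, which passes, with library type as a covariate). With that covariate 859 of all genes passed in the cold, against 252 without it. Furin, another convertase, had a log2 difference of 0.71 in the cold (SE 0.26, adjusted p = 0.185, limma), with both cold libraries higher. On HFD the libraries overlapped for both Pcsk6 (0.35, adjusted p = 0.724, limma) and Furin (0.19, adjusted p = 0.878, limma).

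Of the 9 listed nitric oxide synthases and other guanylyl cyclases, which make cGMP by other routes, 5 were tested and 1 rose in the cold, where 1.22% of all genes did. Nos1, the neuronal nitric oxide synthase that is also found in skeletal muscle, was at 0.063 and 0.0638 FPKM at 22 °C and 1.69 and 1.12 FPKM at 4 °C (log2 difference 1.17, SE 0.14, adjusted p = 0.0384, limma). Both 22 °C libraries were under the 0.1 FPKM needed for a test. Nos1 thus entered the test only through the group where it was high, and its call is given as a description. With 0.1 added in place of 1 the difference was 3.18. Nos1 was at 0.818 FPKM in CD replicate 8 and at most 0.106 FPKM in the other CD and HFD libraries. The 0.0568 FPKM of CD replicate 6 shows how far the CD libraries differ in this gene. Gucy1a1, a subunit of the soluble guanylyl cyclase, was lower in both cold libraries (-0.35, SE 0.17, adjusted p = 0.267, limma) and higher in both HFD libraries (0.29, adjusted p = 0.637). Gucy1a2, the other alpha subunit of that enzyme, was higher in both HFD libraries (0.41, SE 0.20, adjusted p = 0.420, limma), as was the endothelial synthase Nos3 (0.54, SE 0.25, adjusted p = 0.384, limma).

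All 12 genes of cGMP breakdown and export were tested and 0 passed in either comparison (limma, 2 and 2 at an unadjusted p under 0.05), with medians of 0.01 in the cold and 0.11 on HFD. Pde2a, a phosphodiesterase that cGMP stimulates, had both libraries higher in the cold (0.60, SE 0.19, adjusted p = 0.144, limma) and on HFD (0.73, SE 0.38, adjusted p = 0.436, limma). Pde3b, the phosphodiesterase through which insulin restrains lipolysis, was at 56.7 and 47.0 FPKM at 22 °C and 74.2 and 69.0 FPKM at 4 °C (0.46, SE 0.23, adjusted p = 0.275, limma). Pde1b, a calcium-dependent phosphodiesterase, was lower in both cold libraries (-0.33, SE 0.17, adjusted p = 0.303, limma) and higher in both HFD libraries (0.80, SE 0.28, adjusted p = 0.261, limma).

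Of the 9 cGMP effectors, 2 rose in the cold, again beside 1.22% of all genes. Hspb6, a small heat shock protein that cyclic nucleotide-dependent kinases phosphorylate and that muscle holds in quantity, was at 3.92 and 2.05 FPKM at 22 °C and 27.5 and 24.0 FPKM at 4 °C (2.78, SE 0.28, adjusted p = 0.0271, limma). Kcnma1, the pore of the large-conductance calcium-activated potassium channel, was at 0.263 and 0.0685 FPKM at 22 °C and 2.06 and 1.28 FPKM at 4 °C (1.19, SE 0.18, adjusted p = 0.0499, limma). The lower 22 °C library was under the 0.1 FPKM needed for a test. Like Nos1, Kcnma1 thus entered the test only through the cold group, and its call is given as a description. Hspb6, Kcnma1 and Nos1 are genes that muscle also expresses. All 3 were highest in the 4 °C libraries and CD replicate 8, the 3 libraries with the most skeletal muscle markers. The summed level of the 11 skeletal muscle markers found was 99.6 to 497 FPKM at 22 °C and 1728 to 3827 FPKM at 4 °C, with all 11 higher in both cold libraries, as 37.9% of all genes were, and none at 0. In CD replicate 8, with 1344 FPKM of these markers against 512 in CD replicate 6, Hspb6 was at 21.9 FPKM against 2.42 and Kcnma1 at 1.01 against 0.206. In 22 °C replicates 4 and 7 the markers summed to 497 and 99.6 FPKM. Hspb6 and Kcnma1 were also higher in replicate 4, while Nos1 was nearly equal (0.063 and 0.0638 FPKM). CD replicate 6, near 22 °C replicate 4 in these markers, was lower than it in all 3 genes. The part of muscle in these 3 results was not tested. Vasp, an actin regulator phosphorylated by the cGMP kinase, had both libraries higher on HFD (1.04, SE 0.35, adjusted p = 0.245, limma). It passed with library type as a covariate (adjusted p = 0.0113, limma), where 744 of all genes passed on HFD, against 12 without it.

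The 3 inhibitory G protein subunits through which NPR3 can signal were tested and 0 passed (limma, 0 in the cold and 1 on HFD at an unadjusted p under 0.05). On HFD both libraries were higher, as for 39.9% of all genes, for Gnai1 (0.49, adjusted p = 0.527), Gnai2 (1.14, adjusted p = 0.306) and Gnai3 (0.60, adjusted p = 0.520). Leaving out 1 library in turn gave 0.71 to 1.56 for Gnai2 and 0.31 to 0.89 for Gnai3. With library type as a covariate Gnai2 passed on HFD (adjusted p = 0.0157, limma), where 744 of all genes passed, against 12 without the covariate. In the cold the log2 differences were -0.21, -0.05 and 0.17, with adjusted p from 0.614 to 0.906.

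Of the 10 targets of the pathway in fat, 1 rose in the cold, beside 1.22% of all genes. Ppargc1a, the coactivator of mitochondrial and thermogenic genes, was at 10.9 and 10.8 FPKM at 22 °C and 107 and 73.6 FPKM at 4 °C (2.92, SE 0.25, adjusted p = 0.0208, limma). It was at 4.39 and 5.86 FPKM on CD and 7.41 and 6.66 FPKM on HFD (0.40, SE 0.32, adjusted p = 0.616, limma). Ucp1, the uncoupling protein that makes heat, was at 699 and 1427 FPKM at 22 °C and 6462 and 5371 FPKM at 4 °C, a log2 difference of 2.56 (SE 0.51) that did not pass (adjusted p = 0.0646, limma). It passed with library type as a covariate (adjusted p = 0.0272, limma), where 859 of all genes passed in the cold, against 252 without it. On HFD its libraries overlapped those on CD (-0.21, adjusted p = 0.930, limma). Lipe, the hormone-sensitive lipase, and Creb1, a transcription factor that cyclic nucleotide signalling activates, had both libraries higher on HFD (0.59, adjusted p = 0.691, and 0.56, adjusted p = 0.533, limma). Leaving out 1 library in turn gave 0.37 to 0.815 for Lipe and 0.26 to 0.85 for Creb1. The calls for Ppargc1a, Hspb6, Nos1 and Kcnma1 are each lost when either cold library is left out, with adjusted p from 0.0566 to 0.147, but then 0 of all 17470 genes pass. The log2 differences were then 2.65 and 3.19 for Ppargc1a, 2.69 and 2.88 for Hspb6, 0.997 and 1.34 for Nos1 and 0.97 and 1.40 for Kcnma1 (without 4 °C replicate 2 and 11). The calls for Nos1 and Kcnma1 are also lost without 22 °C replicate 7 (adjusted p of 0.0553 and 0.114), where 122 genes pass.

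**Figure D3:**
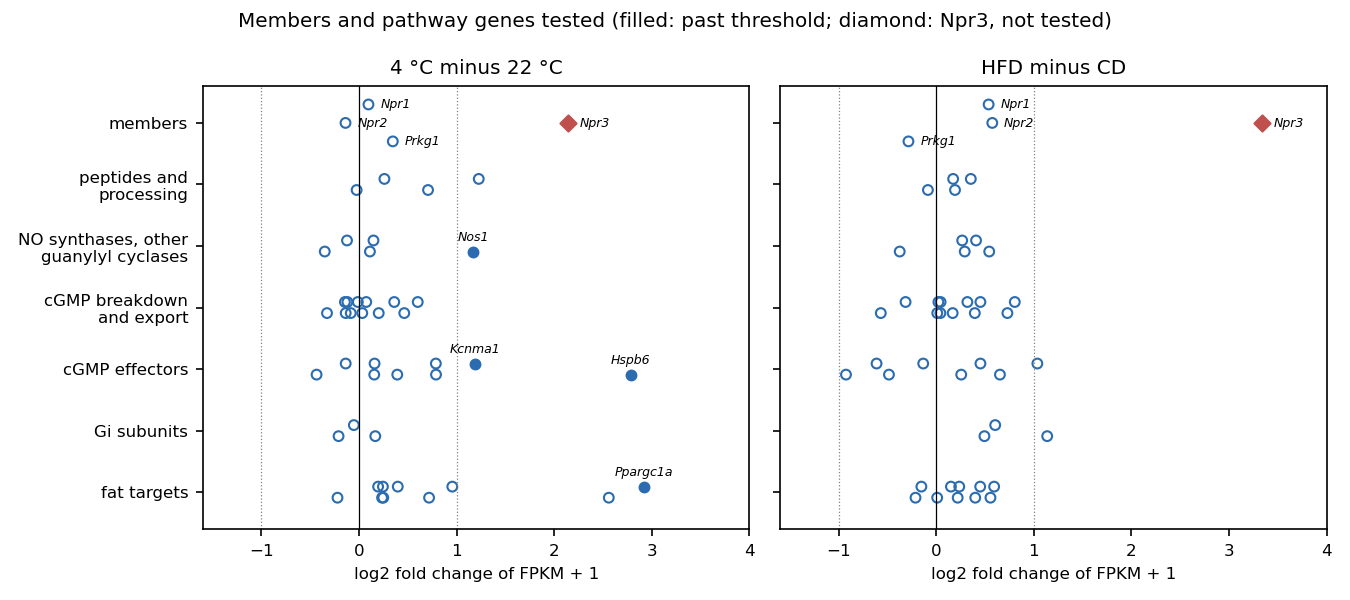
Log2 differences of FPKM + 1 (horizontal axis) for the members and the tested genes of the 6 pathway lists (rows), at 4 °C against 22 °C (left) and on HFD against CD (right); filled points are past the threshold, dotted lines mark a log2 difference of 1 in either direction, and Npr3, a diamond, was not tested. Filled points are Nos1, Kcnma1, Hspb6 and Ppargc1a in the cold, and there is no filled point on HFD.

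The genes with the pattern most like Npr3 were found by Pearson's r of log2(FPKM + 1) over the 8 libraries, among the same 10877 genes. They were Bod1l (r = 0.986), Gda (0.985), Mad1l1 (0.984), Hcls1 (0.982) and Nde1 (0.974). Gda, the guanine deaminase, was at 3.37 and 3.32 FPKM at 22 °C, 8.63 and 5.99 at 4 °C, 3.70 and 2.78 on CD and 8.52 and 9.56 on HFD. Hcls1, a signalling protein of blood cells, was at 1.75 and 1.42 FPKM at 22 °C, 4.00 and 3.27 at 4 °C, 1.83 and 0.863 on CD and 4.69 and 5.36 on HFD. For these 2 genes too, every cold and HFD library was above every control library, with a smaller span than Npr3. The genes share libraries and depth, so r is a description.

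**Figure D4:**
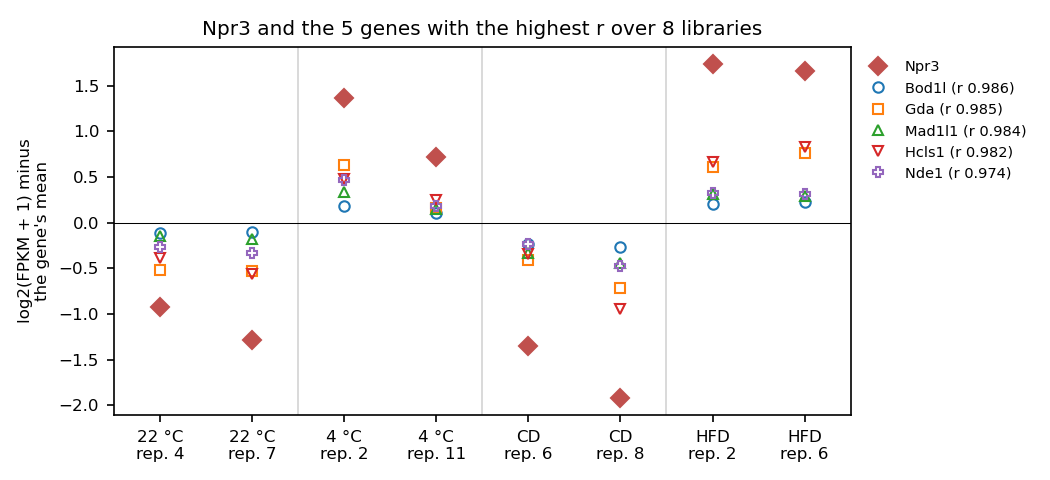
Log2(FPKM + 1) minus the gene's mean over the 8 libraries (vertical axis) for Npr3 and the 5 genes with the highest r, by library (horizontal axis). All 6 genes lie below their mean in the 4 control libraries and above it in the cold and HFD libraries, and Npr3 lies farthest from its mean in each library.

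The other members had other companions. Npr1 was most like Ccdc85a (r = 0.986), Cracr2b (0.976) and Gimap8 (0.961), and Npr2 was most like Kif13b (0.975), the collagen gene Col5a1 (0.970) and Ewsr1 (0.968). Prkg1 was most like Pcp4l1 (0.953), the slow muscle myosin gene Myh7 (0.947) and Yipf7 (0.940). Between members r was 0.716 for Npr1 with Npr3, 0.637 for Npr1 with Npr2 and 0.562 for Npr2 with Npr3, and it was negative for Prkg1 with each receptor, from -0.44 to -0.12.

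Markers of several cell types moved with the members. Summed macrophage markers were 45.8 to 63.7 FPKM at 22 °C, 48.7 to 109 at 4 °C, 39.4 to 111 on CD and 194 to 247 on HFD, with all 8 markers higher in both HFD libraries, beside 39.9% of all genes, and 1 of 8 higher in both cold libraries, beside 37.9%. None of the macrophage markers was at 0 in any library. Over the 8 libraries the r of Npr3 with the mean log2 level of the markers was 0.78 for macrophages, 0.73 for smooth muscle and pericytes and 0.72 for endothelium. For general adipocytes it was 0.68, for fibroblasts and progenitors 0.61, for brown adipocytes 0.22 and for skeletal muscle -0.16. Summed smooth muscle and pericyte markers were 105 to 108 FPKM at 22 °C, 118 to 136 at 4 °C, 77.0 to 110 on CD and 130 to 168 on HFD. Summed endothelial markers were 186 to 189, 212 to 268, 121 to 139 and 190 to 224 FPKM in the same groups. The sums of both vascular lists were thus higher in the cold and HFD libraries than in their controls, but not every marker was. In the cold, 6 of 10 smooth muscle and pericyte markers were higher and 3 lower (Cspg4, Rgs5 and Notch3) in both libraries, and 6 of 10 endothelial markers were higher and 2 lower (Tie1 and Tek), beside 37.9% and 20.6% of all genes. On HFD, 8 of 10 and 5 of 10 were higher in both libraries and 0 were lower, beside 39.9% and 5.8%. By limma 0 of them passed in either comparison (6 and 6 in the cold and 6 and 1 on HFD at an unadjusted p under 0.05), and none was at 0. The part of these cells in the Npr3 difference was not tested.

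Npr2 went most with the fibroblast and progenitor markers (r = 0.90), whose sum was 184 to 295 FPKM at 22 °C, 201 to 305 at 4 °C, 122 to 132 on CD and 267 to 282 on HFD. Their mean log2(FPKM + 1), on which r was taken, was 4.06 and 3.52 at 22 °C and 3.87 and 3.35 at 4 °C. On CD it was 2.94 and 2.96 and on HFD 3.84 and 3.81. In the cold 1 of these 9 markers was higher and 1 lower in both libraries, beside 37.9% and 20.6% of all genes. On HFD 7 were higher and 0 lower, beside 39.9% and 5.8%. Npr1 went most with the general adipocyte markers (r = 0.85), whose mean log2(FPKM + 1), the measure r was taken on, was 7.35 to 7.60 at 22 °C, 7.22 to 7.66 at 4 °C, 6.37 to 7.28 on CD and 7.504 to 8.044 on HFD. Their summed FPKM, 4846 to 5372, 8121 to 9245, 4349 to 8139 and 5998 to 8253 in the same order, is mostly Fabp4. In the cold 5 of these 8 markers were higher and 3 lower (Adipoq, Cebpa and Lep) in both libraries, beside 37.9% and 20.6% of all genes. On HFD 3 were higher and 0 lower, beside 39.9% and 5.8%. Lep, the leptin gene, was the 1 marker of the list past the threshold on HFD (log2 difference 5.005, SE 0.55, adjusted p = 0.0425, limma), and the other 7 lay between -0.05 and 0.59, so the mean log2 level on HFD rests in large part on Lep. Prkg1 went most with the skeletal muscle markers (r = 0.83). Their sum was 14.2 to 167 FPKM on HFD against 512 to 1344 on CD, with 10 of 11 lower in both HFD libraries, beside 5.8% of all genes. The 3 libraries with the most Prkg1, the 4 °C libraries and CD replicate 8, were the 3 with the most muscle markers. The part of these cells in the members' differences was not tested.

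**Figure D5:**
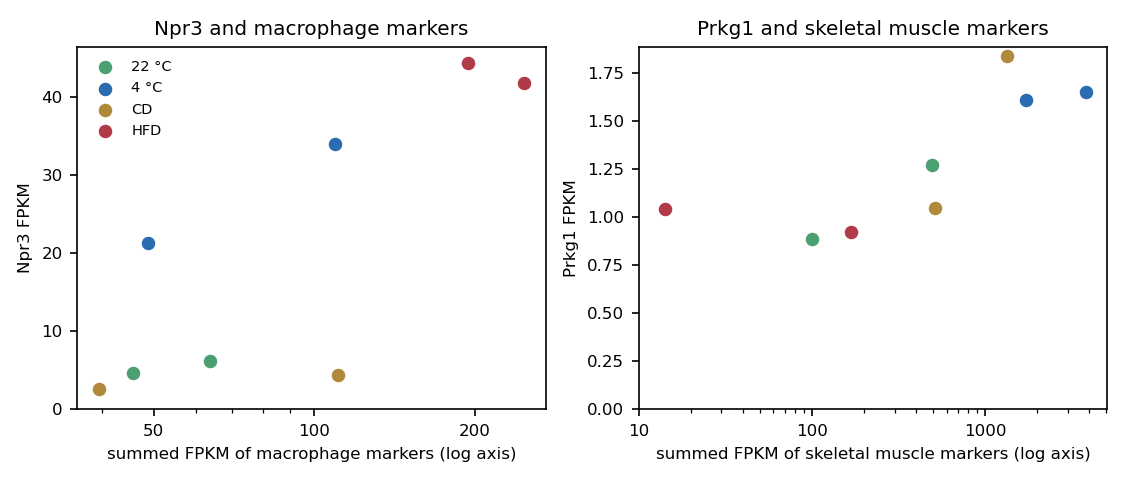
Left, Npr3 FPKM against the summed FPKM of 8 macrophage markers; right, Prkg1 FPKM against the summed FPKM of 11 skeletal muscle markers (horizontal axes on a log scale); each point is 1 of the 8 libraries, coloured by group. The HFD libraries have the most macrophage markers, 194 and 247 FPKM, and the most Npr3, and the 3 libraries with the most muscle markers have the most Prkg1.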

How the data were processed

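RNA-Seq of BAT covered 8 libraries, 2 for each of 22 °C, 4 °C, CD and HFD. The authors removed ribosomal RNA, prepared strand-marked libraries, mapped reads to GRCm38 with TopHat2 2.0.10 and obtained values with Cufflinks on Ensembl release 87. Per the submitters' processing notes Cufflinks was version 2.2.1. The deposited values are FPKM, 1 per gene and library. No count table was used here, so the authors' DESeq2 test was not repeated. Depth was read from the step between low values, of which 99.5% to 99.8% (1368 to 3272 per library) were whole within 0.1 fragment. This covers counting error only, as PCR copies are not independent molecules.

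Values were taken to log2(FPKM + 1) and fitted by limma (version 3.58.1, R 4.3.3; lmFit, eBayes with a trend) on the 4 libraries of a comparison, without covariates. Autosomal genes were tested, two-sided, if 2 or more of the 4 libraries reached 0.1 FPKM, with Benjamini-Hochberg adjustment over all of them. The threshold was a log2 difference of at least 1 in either direction at an adjusted p under 0.05. Adding 1 understates differences of low genes. The scripts were tested on simulated data.

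The members and lists were chosen with earlier results of these data known. Named were the members, each list's genes past threshold, each list's 2 largest differences per comparison, and the genes of highest r (5 for Npr3, 3 for each other member). Alternatives were the pseudocount, the filter, quantile normalization, median centring, all 8 libraries in 1 fit, library type as a covariate, and leaving out each library. Promoter windows are from RefSeq on GRCm38.p6, and all 4 members matched. Protein sequences are not shown here.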

Additional observations from a re-analysis of the deposited data

Results flagged for a closer look

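Among the tested members and the pathway genes named by the rule, Ppargc1a was the 1 gene whose response to cold differed from its response to HFD by a test of the difference itself. On the log2 scale its cold difference was 2.52 above its diet difference (SE 0.38, adjusted p = 0.0284, limma over all 8 libraries). Both cold libraries were above both controls, as for 37.9% of all genes. Both HFD libraries were above both CD libraries, as for 39.9%. Leaving out 1 library in turn gave 2.25 to 2.79, and the adjusted p was 0.0173 to 0.115 over all alternatives. The call was lost without 22 °C replicate 4 (0.0990), 22 °C replicate 7 (0.115), 4 °C replicate 2 (0.0725), CD replicate 8 (0.0599), HFD replicate 2 (0.0811) or HFD replicate 6 (0.107). Of the marker genes, 5 also differed by this test (limma): Lep (-7.13, adjusted p = 0.0142), Col3a1 (-3.23, adjusted p = 0.0451), Elovl3 (7.73, adjusted p = 0.0189), Mylpf (7.13, adjusted p = 0.0439) and Actn3 (6.53, adjusted p = 0.0354). Over all 16552 genes tested 1.65% passed, 1.16% with a higher and 0.489% with a lower value in the cold. The arms also differ in age, which the test of the difference cannot separate from condition. Groups of 2 are too small to look for single outlying libraries.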

How the results depend on the processing

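No analysis paired by replicate number was possible because 22 °C and 4 °C share no replicate number and CD and HFD share only number 6. Library type, read from Gm10800, was fitted as a covariate among the alternatives. Over 11 alternatives Npr3, whose direction its choice fixed, was at 1.79 to 2.47 (log2) in the cold and 2.98 (median centring) to 3.65 (pseudocount 0.1) on HFD. Npr1, Npr2 and Prkg1 stayed short of the threshold under all of them, with adjusted p of 0.199 to 0.968 in the cold and 0.0579 to 0.9998 on HFD. Only the cold difference of Npr1 changed sign, at -0.18 (quantile normalization), -0.16 (median centring) and -0.032 (without 4 °C replicate 11), with -0.032 to 0.23 when 1 library was left out. Median centring moved the median of all genes tested to -0.19 (cold, from 0.07) and -0.18 (HFD, from 0.18), and that of genes averaging 1 FPKM or more to -0.05 (from 0.21) and -0.06 (from 0.29).

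Counts of genes past threshold depended on the setting. In the cold (252 genes) they were 475 with pseudocount 0.1, 0 without a filter (4689 at an unadjusted p under 0.05), 529 at 1 FPKM, 489 with quantile normalization, 757 with median centring, 439 with all 8 libraries, 859 with library type as a covariate and 0 to 244 with 1 library left out (0 without 4 °C replicate 2 or 11, with 3740 and 5726 at an unadjusted p under 0.05). On HFD (12 genes) they were 0 without a filter (2490), 24 at 1 FPKM, 0 with quantile normalization (2126), 45 with median centring, 75 with all 8 libraries, 744 with library type and 123 to 752 with 1 library left out. For the difference (273 genes) they were 530 with quantile normalization, 485 with median centring, 836 with library type and 10 to 675 with 1 library left out. The split of cold calls was 213 higher and 39 lower, against 312 and 177 with quantile normalization and 493 and 264 with median centring. On HFD it was 9 and 3, against 23 and 22 with median centring.

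Pathway genes that changed sign in the cold, with the range over libraries left out where a library did it, were Nos3 at -0.072 (quantile), -0.11 (median centring) and -0.038 to 0.33 (-0.038 without 4 °C replicate 2), Gucy1a2 at -0.15 (median centring), Pde3b at -0.086 (quantile), Gnai3 at -0.14 (quantile) and -0.091 (median centring), Lipe at -0.29 (quantile) and -0.013 (median centring), Gnai1 at -0.43 to 0.014 (0.014 without 22 °C replicate 4) and Gnai2 at -0.21 to 0.11 (0.11 without 4 °C replicate 11). On HFD they were Pcsk6 at -0.0003 (median centring) and -0.017 to 0.73 (-0.017 without CD replicate 6), Furin at -0.13 (quantile), -0.16 (median centring) and -0.37 to 0.75 (-0.37 without HFD replicate 6), Gucy1a1 at -0.039 (quantile) and -0.063 (median centring), Nos1 at -0.77 to 0.017 and Hspb6 at -2.30 to 0.45 (both positive without CD replicate 8), and Ucp1 at 0.0091 (quantile) and -0.52 to 0.094 (0.094 without CD replicate 6, 0.065 without HFD replicate 2). Gained calls were Pcsk6 in the cold and Vasp and Gnai2 on HFD with library type as a covariate, Ucp1 in the cold under 4 settings, and Hspb6, lower on HFD, without CD replicate 6 (-2.30). The causes were not tested. Without a filter, the cold calls of Nos1, Hspb6, Kcnma1 and Ppargc1a were lost with more genes tested. Hspb6 also lost its call with all 8 libraries in 1 fit, and Nos1 and Kcnma1 fell below a log2 difference of 1 with median centring.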
